A study of Mus musculus with 9 samples.

Results

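The osteoblast lineage transcription factors examined here are the 9 genes Runx2, Sp7, Dlx3, Dlx5, Dlx6, Msx1, Msx2, Twist1 and Prrx1, found by their symbols among the 55367 genes of a mouse RNA-Seq count table. Whole osteosarcoma (OS) tumors were profiled from 2 genetically engineered mouse models (GEMMs). The p53-driven group holds 4 tumors (F187, F325, F331 and F368) from Col2.3-Cre/TrpP53fl/+ mice, in which a Col1a1 promoter fragment active in osteoblasts drives Cre and a single Trp53 allele is floxed. The Myc-knockin group holds 5 tumors (M351, M408, M9, M624 and M664) that add to the same Cre and floxed Trp53 alleles a c-MycT58A transgene behind a Lox-Stop-Lox (LSL) cassette, which Cre removes to switch the transgene on. Both groups therefore carry Col2.3-Cre and a floxed Trp53 allele, and by their labels they differ in the c-MycT58A allele. The tumors were spontaneous, and none was labelled as treated. The study describes an earlier onset of tumors and earlier sacrifice in the Myc-knockin model, and the age of each mouse at collection was not given in the sources used here. Age and genotype therefore cannot be told apart.

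Bone-forming osteoblasts arise from mesenchymal progenitors, and a small set of transcription factors carries them through this change. RUNX2 commits a progenitor to the lineage and SP7, also called osterix, acts after it, while homeodomain proteins of the DLX and MSX families act on many of the same genes. TWIST1 binds RUNX2 and restrains it, and PRRX1 marks the early limb and craniofacial mesenchyme. Osteosarcoma cells make bone matrix and commonly express these factors.

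In these tumors Dlx3 was the only one of the 9 factors that passed the test, with a mean about 3.06-fold lower in the Myc-knockin tumors. Runx2 was lower in all 5 Myc-knockin tumors than in any p53-driven tumor but did not pass. The other 7 factors overlapped between the groups. One Myc-knockin tumor, M624, had the lowest level of all 9 tumors for 8 of the 9 factors. For Msx1 it was nearly level with the p53-driven tumor F325. How often M624 was the lowest tumor over all genes was not counted.

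The labels were first checked with Myc itself. Its level in CPM, edgeR's count value scaled to the TMM-normalized library size, was 46.2, 43.5, 67.1 and 60.4 in the p53-driven tumors and 269.6, 520.3, 144, 1045 and 905 in the Myc-knockin tumors. Tumors are given in the order F187, F325, F331, F368, then M351, M408, M9, M624, M664, here and below. The groups did not overlap, with a log2 fold change of 3.41 ± 0.59 (standard error; adjusted p = 0.0217 by edgeR's quasi-likelihood test, Benjamini-Hochberg adjusted over 15365 genes). Calls required both a fold change above 1.5 and an adjusted p below 0.05. They covered 809 of the genes tested (5.27%), with 461 (3%) lower in the Myc-knockin tumors and 348 (2.26%) higher.

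The libraries also differed in ways that were split unevenly between the groups, so these differences and the genotype cannot be told apart. Total counts ranged from 2716322 to 17073285. F187, M351, M408 and M9 had between 23.2% and 81.0% of their counts on 12 satellite-repeat genes, and the other 5 libraries had at most 0.0242%. M624 and M664 had at most 6.35 CPM of the small nuclear RNA Rn7sk, against at least 6545 CPM elsewhere. A floor of 3 counts corresponded to between 0.114 CPM in M624 and 2.39 CPM in M9. Genomic background, estimated from counts on chemosensory receptor genes, was 16.8% of the other counts in M351, 24.1% in M9 and 5.49% in F187, and at most 0.599% in the other libraries. CPM varied more between the Myc-knockin tumors, with a median coefficient of variation over all genes tested of 0.522, against 0.277 in the p53-driven group.

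The factors lie on 8 chromosomes of mm10. Runx2 (ENSMUSG00000039153) is transcribed from the minus strand of chr17:44495987-44814797, with 8837 exon bases. Sp7 is on chr15:102356606-102367182 (minus strand), Dlx3 on chr11:95120119-95125296 (plus), Msx1 on chr5:37820485-37824583 (minus), Msx2 on chr13:53466884-53473074 (minus), Twist1 on chr12:33957671-33959829 (plus) and Prrx1 on chr1:163245119-163313710 (minus). Dlx6 (chr6:6863334-6868568, plus) and Dlx5 (chr6:6877805-6882085, minus) form a pair separated by 9236 bases. Counts are over the exons of each gene, so they do not distinguish the alternative promoters of Runx2 or other isoforms.

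The sequence just before the start site of a factor is where other factors of the set can bind. RefSeq promoter windows of GRCm38.p6, the assembly behind mm10, were at hand for Runx2, Msx1, Msx2, Twist1 and Prrx1. In the 250 bases before each start, both strands were searched for the RUNX motif ACCACA, the homeodomain motif TAATTA, the GC box GGGCGG bound by SP proteins, and the MYC E-box CACGTG. Starts here are those of RefSeq, which for Runx2, Msx2 and Prrx1 lie inside the longer GENCODE spans given above. The stretches shown for Runx2 and Msx2 are also inside those spans, and that of Prrx1 is outside its span. The RUNX motif was found in the Runx2 window, 80 bases before the RefSeq start, and in 14.0% of 32851 windows. The homeodomain motif was found in the windows of Prrx1 and Msx2 and in 4.84% of all windows. These 3 stretches of 30 bases are shown because each holds a motif of the families described here, on the strand of the gene, with the motif in capitals.
Runx2, chr17:44814690-44814719, minus strand: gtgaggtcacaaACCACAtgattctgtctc
Prrx1, chr1:163313806-163313835, minus strand: gcaagggaatgaTAATTAgacctttatttt
Msx2, chr13:53472950-53472979, minus strand: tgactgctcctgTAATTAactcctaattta
The GC box was found in the windows of Msx1, Msx2 and Twist1 and in 32.7% of all windows. The E-box was in none of these 5 windows and in 6.02% of all windows. A match describes the letters only, and binding was not measured.

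Runx2, the factor that commits cells to the osteoblast lineage, had 246, 279, 346 and 371 CPM in the p53-driven tumors and 184, 132, 194, 9.18 and 134 CPM in the Myc-knockin tumors. The groups did not overlap, and M624 stood far below every other tumor. The means were 310.4 ± 57.8 CPM (SD, n = 4) and 131 ± 73.5 CPM (SD, n = 5). Its log2 fold change came to -1.26 (standard error 0.61), with an unadjusted p of 0.0646 and an adjusted p of 0.215 by edgeR, so Runx2 was not called. Without M624 and M664 it was -0.82 (standard error 0.28, adjusted p = 0.112 by edgeR), and over 21 alternatives it ranged from -2.18 to -0.82. A complete separation with the Myc-knockin tumors below was seen for 1158 (7.54%) of the genes tested, and for 2 of the 9 factors, Runx2 and Dlx3.

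Sp7, which acts after Runx2 and is needed for osteoblasts to mature, had 180.1, 244, 191 and 210.3 CPM in the p53-driven tumors and 148, 34.4, 147, 25.9 and 239.7 CPM in the Myc-knockin tumors. M351, M408, M9 and M624 lay below the p53-driven range, while M664 lay inside it. Sp7 had a log2 fold change of -0.80 (standard error 0.57, adjusted p = 0.395 by edgeR). M664, with the highest Sp7 of its group, had less Runx2 than any p53-driven tumor.

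**Figure D1:**
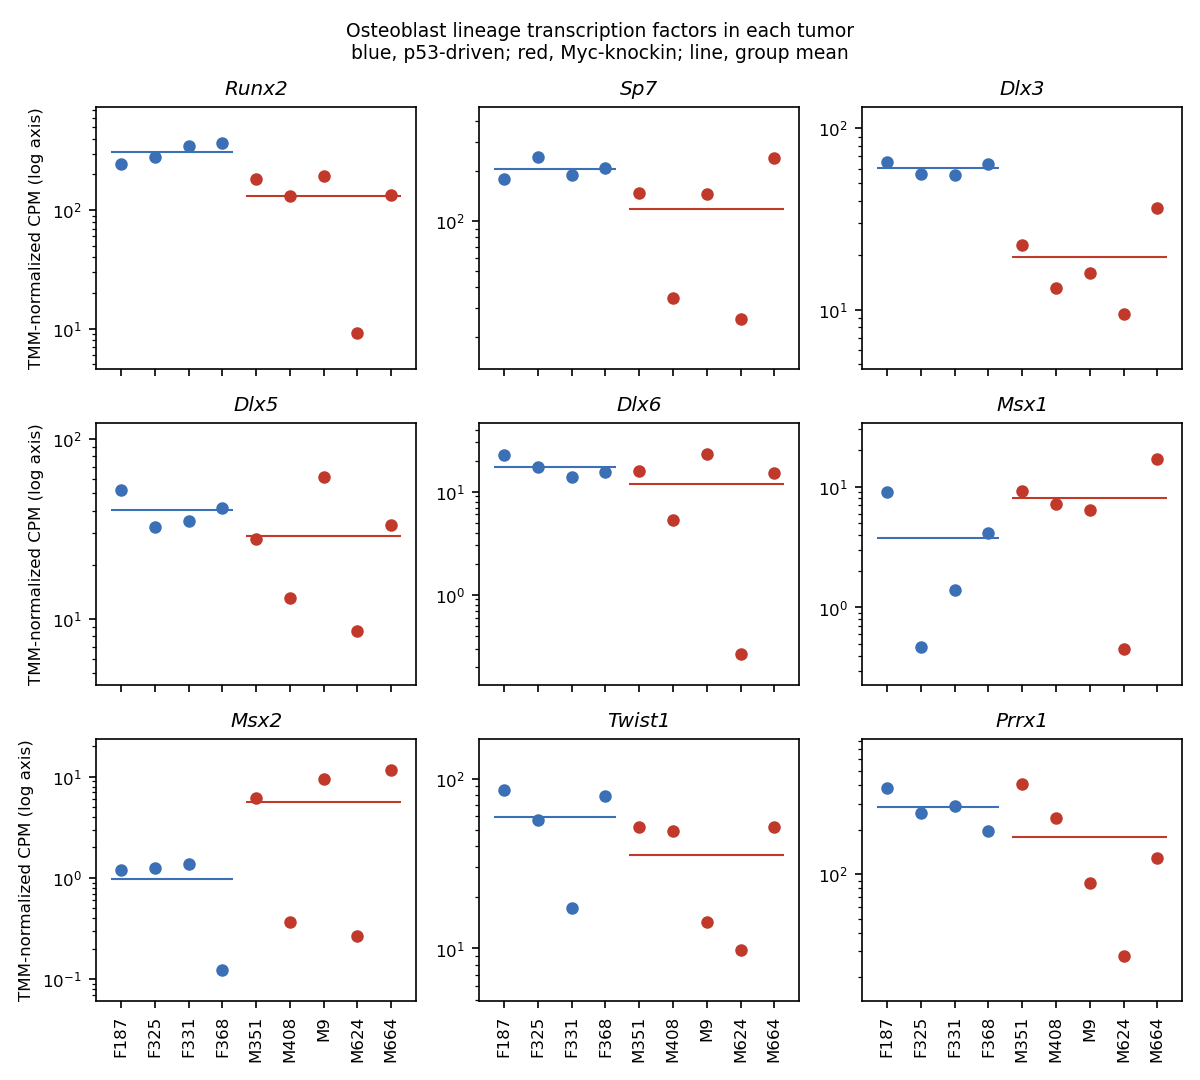
Level of each factor in each tumor, in TMM-normalized CPM on a log axis whose range differs between panels; each point is 1 tumor and each line a group mean, with the 4 p53-driven tumors in blue and the 5 Myc-knockin tumors in red. The groups are apart for Runx2 and Dlx3 and overlap for the other 7 factors. M624 is the lowest tumor in every panel except Msx2, narrowly so for Msx1.

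Dlx3, a homeodomain factor of osteoblasts and osteocytes, had 65.6, 55.8, 55.3 and 63.8 CPM in the p53-driven tumors, a span of 1.19-fold. It had 22.8, 13.2, 15.9, 9.45 and 36.5 CPM in the Myc-knockin tumors. Every Myc-knockin tumor was below every p53-driven tumor, with M664 the nearest. The means were 60.1 ± 5.33 CPM (SD, n = 4) and 19.6 ± 10.7 CPM (SD, n = 5), and Dlx3 had a log2 fold change of -1.61 (standard error 0.37, adjusted p = 0.0372 by edgeR). Dlx3 was the 1 factor called among 9, beside 5.27% of all genes tested. It was also called by DESeq2 (adjusted p = 0.00209), by limma-voom (adjusted p = 0.00791) and without M624 and M664 (log2 fold change -1.76, adjusted p = 0.0265 by edgeR). Over all genes, DESeq2 called 2646 and limma-voom 1663 of 15365, and 660 of 14308 were called without M624 and M664.

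The call of Dlx3 was close to the threshold. When 1 tumor was left out at a time, the log2 fold change stayed between -1.97 (without M664) and -1.36 (without M624). The call held without M9 and without M664 only, and the edgeR adjusted p was between 0.0556 and 0.129 without any of the other 7 tumors. Over all genes, the calls fell from 809 to 8, 6 and 5 without F325, F331 and F368. They were 335, 371, 847 and 375 without F187, M351, M408 and M624. Without the 4 libraries with satellite reads the log2 fold change of Dlx3 was -1.31 (adjusted p = 0.130 by edgeR).

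Dlx5, a homeodomain factor induced by BMP signals, had 51.7, 32.4, 35.1 and 41.3 CPM in the p53-driven tumors and 27.7, 13.0, 61.3, 8.57 and 33.1 CPM in the Myc-knockin tumors. M9 was the highest and M624 the lowest of all 9 tumors, and Dlx5 had a log2 fold change of -0.51 (standard error 0.49, adjusted p = 0.535 by edgeR). Its neighbor Dlx6 had 22.5, 17.5, 13.8 and 15.3 CPM in the p53-driven tumors and 16.0, 5.31, 23.1, 0.267 and 15 CPM in the Myc-knockin tumors. The value of Dlx6 in M624 rests on 7 counts in a library of 17073285, above the floor of 3 counts, or 0.114 CPM, in that library. The log2 fold change of Dlx6 was -0.59 (standard error 0.80, adjusted p = 0.672 by edgeR).

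Msx1 and Msx2, homeodomain factors of early skeletal and craniofacial tissue, were the least abundant factors. Msx1 had 9.08, 0.467, 1.38 and 4.13 CPM in the p53-driven tumors and 9.23, 7.14, 6.37, 0.457 and 16.8 CPM in the Myc-knockin tumors. Its log2 fold change came to 1.17 (standard error 0.96, adjusted p = 0.465 by edgeR), with M664 the highest and M624 the lowest tumor. The Msx1 level in M9 rests on 8 counts, with 3.85 expected from genomic background. Msx2 had 1.19, 1.24, 1.38 and 0.122 CPM in the p53-driven tumors and 6.16, 0.366, 9.56, 0.267 and 11.8 CPM in the Myc-knockin tumors. M351, M9 and M664 lay above the p53-driven range, and M408 and M624 lay inside it. Msx2 had a log2 fold change of 2.48 (standard error 1.15, unadjusted p = 0.0535, adjusted p = 0.194 by edgeR).

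Few reads stand behind most of the Msx2 values. The counts were 3, 16, 16 and 1 in the p53-driven tumors and 10, 2, 12, 7 and 273 in the Myc-knockin tumors. From the genomic background alone 3.68 counts were expected on the Msx2 exons in M351, 4.07 in M9 and 2.33 in F187. In M664 the background expectation was below 1 count, and 273 counts were found. Msx2 did not reach the count filter in 4 of the 21 alternatives, including each setting without M624 or M664 that kept the other libraries.

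Twist1, a basic helix-loop-helix factor that restrains RUNX2, had 85.3, 56.7, 17.3 and 79.3 CPM in the p53-driven tumors and 51.7, 49.1, 14.3, 9.83 and 51.9 CPM in the Myc-knockin tumors. F331 was low for its group, so the range of the p53-driven tumors spanned 4.93-fold and covered 3 of the Myc-knockin tumors. Twist1 had a log2 fold change of -0.75 (standard error 0.57, adjusted p = 0.432 by edgeR). Prrx1, a homeobox factor of mesenchymal progenitors, had 385, 261, 288 and 196 CPM in the p53-driven tumors and 409.9, 239, 87.6, 27.7 and 129 CPM in the Myc-knockin tumors. M351 had the most Prrx1 of all 9 tumors, M408 lay within the p53-driven range, and M9, M624 and M664 lay below it. The log2 fold change of Prrx1 was -0.66 (standard error 0.61, adjusted p = 0.514 by edgeR).

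Of the whole set, 1 of 9 factors was called lower and 0 were called higher by edgeR. At an unadjusted p under 0.05 there was 1 of 9 with edgeR, beside 4112 of the 15365 genes tested. With DESeq2 there were 3 of 9, beside 4587 of the 15365 genes. By sign, 7 of the 9 log2 fold changes were negative, and the median was -0.66, beside a median of 0.14 over all genes tested. The direction of each of the 9 factors was the same in every alternative in which it could be tested. In bulk tumor RNA, fewer cells that express a factor and less RNA of it per cell cannot be told apart.

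**Figure D2:**
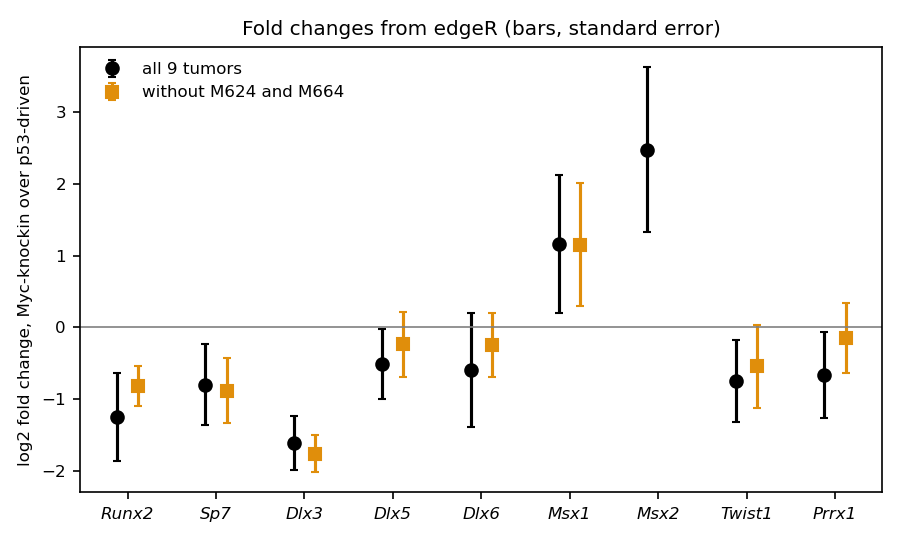
Log2 fold change (Myc-knockin over p53-driven) of each factor from edgeR, with bars of 1 standard error; black circles use all 9 tumors and orange squares leave out M624 and M664, where Msx2 did not reach the count filter. Dlx3 is at -1.61 with all tumors and -1.76 without the pair, while Runx2 moves from -1.26 to -0.82 and Prrx1 from -0.66 to -0.15.

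The spread within the Myc-knockin group was wide. The coefficient of variation was larger in the Myc-knockin tumors than in the p53-driven tumors for 8 of the 9 factors, as for 80.2% of all genes tested, with Msx1 the exception. For Runx2 the highest Myc-knockin tumor had 21.1 times the level of the lowest, against 1.51 times among the p53-driven tumors. For Dlx6 these figures were 86.6 and 1.63, the first set by the value of 0.267 CPM in M624.

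The Myc-knockin tumors differed in which factors were low. M624 was below the p53-driven range for 8 factors, all but Msx2. For Msx1 the margin was narrow, with 0.457 CPM (12 counts) in M624 and 0.467 CPM (6 counts) in F325. M408 was below it for Runx2, Sp7, Dlx3, Dlx5 and Dlx6 and above it for none. M9 was below for Runx2, Sp7, Dlx3, Twist1 and Prrx1 and above for Dlx5, Dlx6 and Msx2. M351 was below for Runx2, Sp7, Dlx3 and Dlx5 and above for Msx1, Msx2 and Prrx1. Its Msx1 level was just above that of F187 (9.23 against 9.08 CPM). It rests on 15 counts, with 3.48 expected from genomic background. M664 was below for Runx2, Dlx3 and Prrx1 and above for Msx1 and Msx2. Runx2 and Dlx3 were thus the only factors below the p53-driven range in all 5 tumors.

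**Figure D3:**
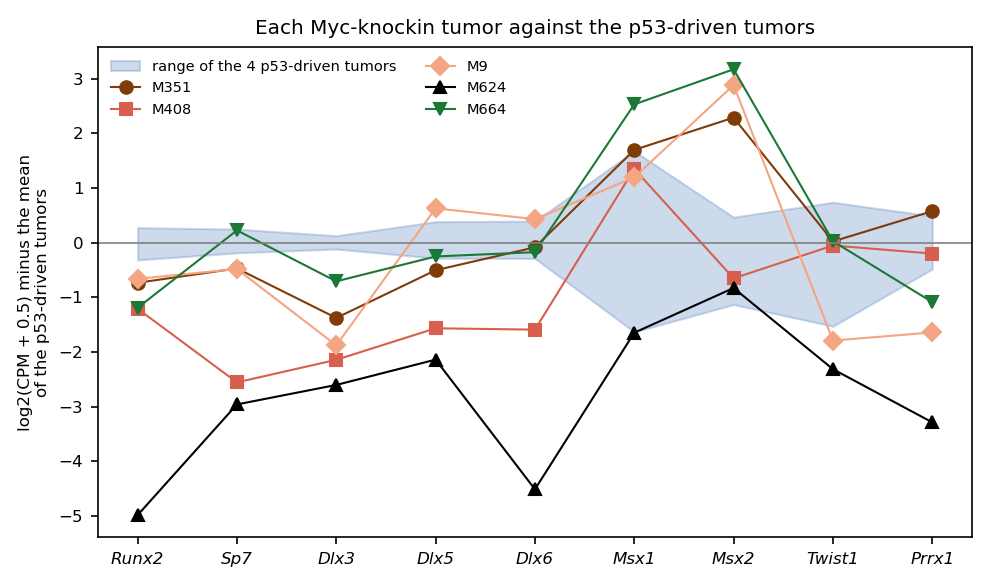
Each Myc-knockin tumor against the p53-driven tumors, as log2(CPM + 0.5) minus the mean of that value over the 4 p53-driven tumors; the lines join the factors of 1 tumor and the shaded band is the range of the p53-driven tumors. M624 reaches -4.99 for Runx2 and -4.51 for Dlx6, M408 follows it for Sp7 and the Dlx genes, and M351, M9 and M664 lie above the band for Msx2.

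M624 also had low levels of some osteoblast products, named here after their values were seen. Alpl, the alkaline phosphatase of mineralizing cells, had 72.2 CPM in M624, the lowest of the 9 tumors, against 101 CPM in M408 and at least 419.9 CPM in the other 7. Col1a1, the main chain of bone collagen, was still at 2098 CPM in M624, against 40517 to 89709 CPM in the p53-driven tumors. Dmp1 and Phex, expressed by osteocytes and late osteoblasts, were at 0.495 and 0.267 CPM in M624. The lowest levels elsewhere were 37.9 CPM of Dmp1 (M664) and 53.3 CPM of Phex (F325). Bglap3 did not follow, at 3.01 CPM in M624 and 2.37, 1.01, 0.346 and 6.44 CPM in the p53-driven tumors. The summed CPM of the 9 factors was 91.6 in M624, from 494 to 875 in the other Myc-knockin tumors and from 948 to 1047 in the p53-driven tumors.

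Per kilobase of exon, the scale on which genes can be compared, Sp7 was the most abundant factor in the p53-driven tumors, at 60.7 ± 8.19 CPM per kilobase (SD, n = 4). It was followed by Twist1 (36.6), Runx2 (35.1), Prrx1 (25.5), Dlx3 (23.1), Dlx5 (17.7), Dlx6 (7.28), Msx1 (1.22) and Msx2 (0.300), all as mean CPM per kilobase. Of the 8 pairs of neighbors in that order, 5 overlapped between tumors, and the steps from Sp7 to Twist1, Dlx5 to Dlx6 and Dlx6 to Msx1 did not. The first of these steps was narrow, since the lowest Sp7 was 53 and the highest Twist1 52.4 CPM per kilobase.

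The mean order in the Myc-knockin tumors was Sp7 (35.0), Twist1 (21.7), Prrx1 (16.1), Runx2 (14.8), Dlx5 (12.7), Dlx3 (7.51), Dlx6 (5.03), Msx1 (2.59) and Msx2 (1.72), again in mean CPM per kilobase. All 8 pairs of neighbors overlapped between tumors there. Dlx3 was above Dlx5 in all 4 p53-driven tumors and below it in all 5 Myc-knockin tumors. That order is a comparison within each library and does not depend on how libraries are scaled. It does depend on the exon lengths used, 2.607 kilobases for Dlx3 and 2.263 for Dlx5. In raw counts Dlx3 was above Dlx5 in M408 (72 against 71), M624 (248 against 225) and M664 (846 against 766). It was below Dlx5 in M351 (37 against 45) and M9 (20 against 77).

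In all, 7 ratios of factors were compared within tumors, as the log2 ratio of counts per kilobase with 0.5 counts added. None passed Benjamini-Hochberg adjustment over the 7 pairs. A single ratio could not pass it alone, since the smallest exact permutation p for 5 tumors against 4 becomes 0.111 after adjustment. The Dlx3:Dlx5 ratio was 0.14, 0.58, 0.45 and 0.42 on the log2 scale in the p53-driven tumors and -0.48, -0.18, -2.12, -0.06 and -0.06 in the Myc-knockin tumors. The groups did not overlap, and the means differed by -0.98 on the log2 scale (two-sided exact permutation test, p = 0.0159, adjusted p = 0.111), where 0.0159 is the smallest p that 5 tumors against 4 allow. In M9, the lowest, Dlx3 was at 15.9 CPM and Dlx5 was the highest of the 9 tumors.

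The other ratios overlapped between the groups. The Sp7:Runx2 ratio had a mean of 1.31 ± 1.32 on the log2 scale in the Myc-knockin tumors (SD, n = 5) and 0.80 ± 0.31 in the p53-driven tumors (SD, n = 4; two-sided exact permutation test, p = 0.444). It was 2.87 in M624 and 2.22 in M664 but -0.56 in M408, the only tumor with less Sp7 than Runx2 per kilobase. The Dlx6:Dlx5 ratio lay between -1.50 and -0.85 on the log2 scale in 8 tumors and at -4.98 in M624. The Msx2:Dlx5 ratio was higher by 2.39 on the log2 scale in the Myc-knockin tumors (two-sided exact permutation test, p = 0.0952, adjusted p = 0.333). The differences were 0.94 for Twist1:Runx2, 0.64 for Prrx1:Runx2 and -0.43 for Msx1:Msx2 on the log2 scale, with exact permutation p of 0.270, 0.317 and 0.762.

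**Figure D4:**
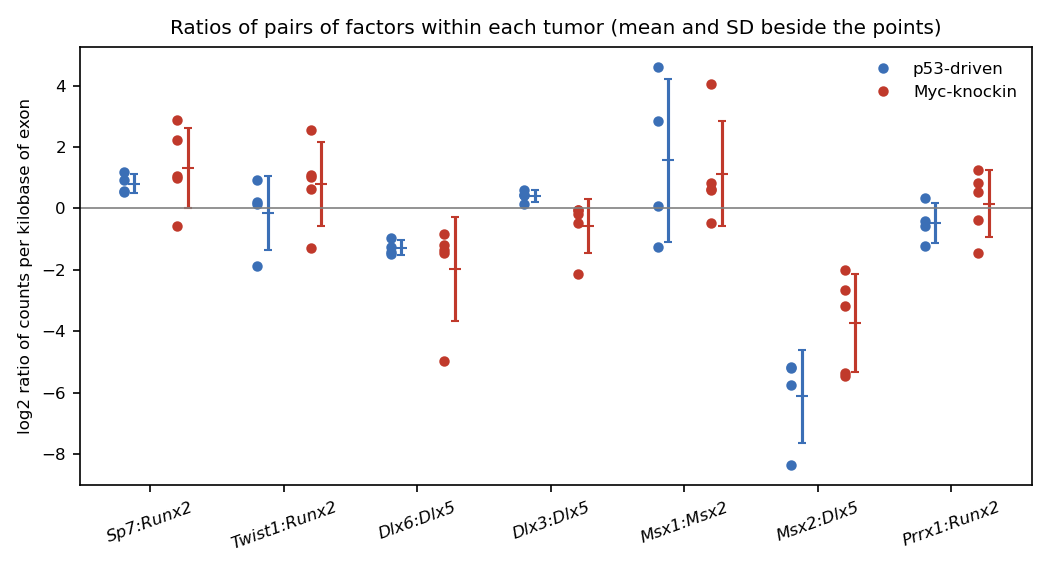
Log2 ratio of counts per kilobase of exon for 7 pairs of factors; each point is 1 tumor, with the mean and SD of each group beside its points. The Dlx3:Dlx5 ratio is above 0 in the 4 p53-driven tumors and below 0 in the 5 Myc-knockin tumors, and M624 lies apart at -4.98 for Dlx6:Dlx5.

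The group differences were also taken separately among libraries with and without satellite reads, with 1 p53-driven against 3 Myc-knockin tumors in the first case and 3 against 2 in the second. The log2 difference in mean CPM for Dlx3 was -1.92 among libraries with satellite reads and -1.34 among those without. For Runx2 it was -0.53 and -2.21, and for Prrx1 -0.65 and -1.67. Sp7, at -0.72 and -0.70, and Dlx5, at -0.61 and -0.80, differed less between the library kinds, as did Dlx6 (-0.60 and -1.02) and Twist1 (-1.15 and -0.73). Msx1 changed sign, with -0.26 among libraries with satellite reads and 2.12 among those without, and Msx2 was at 2.18 and 2.72. The first kind holds a single p53-driven tumor, so these values are descriptions.

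Exons of transcripts from the opposite strand overlap those of 2 factors. Runx2os1 shares 519 exon bases with Runx2 and Dlx6os2 shares 104 with Dlx6. Runx2os1 had at most 28 counts in any tumor, and Dlx6os2 at most 8. Runx2os3, inside the Runx2 locus, had at most 2 counts, and Dlx4os, beside Dlx3's neighbor Dlx4, at most 38. Dlx6os1, a long noncoding RNA of the Dlx5 and Dlx6 locus, was lowest in M624 at 0.0762 CPM and had 5.13, 3.34, 3.20 and 7.29 CPM in the p53-driven tumors. The other Myc-knockin tumors had 6.16, 2.38, 7.97 and 2.33 CPM of Dlx6os1, and its log2 fold change came to -0.44 (standard error 0.90, adjusted p = 0.788 by edgeR). Runx2os2, inside the Runx2 locus, was at 0 counts in M624 and at -1.09 (standard error 1.22, adjusted p = 0.603 by edgeR). The kit was stranded, but the strand setting of the counting was not given in the sources used here, so sense and antisense reads cannot be told apart where exons overlap.

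Partners and modulators of RUNX2 were examined as a list of 20 genes. One, Smurf2, was called lower and 0 were called higher, with a median log2 fold change of -0.29. Smurf2, a ubiquitin ligase that acts on RUNX2 and on BMP signaling proteins, had 164, 131, 238 and 174 CPM in the p53-driven tumors and 83.7, 76.9, 98.0, 48.9 and 67.6 CPM in the Myc-knockin tumors, without overlap (log2 fold change -1.24, standard error 0.28, adjusted p = 0.0365 by edgeR). Cbfb, the obligate partner of RUNX proteins, had a log2 fold change of -0.15 (standard error 0.27, adjusted p = 0.755 by edgeR), and had 99.9 CPM in M624. Atf4, which acts with RUNX2 on the osteocalcin gene, was at -0.83 (standard error 0.30, adjusted p = 0.109 by edgeR), and its groups overlapped. DESeq2 and limma-voom both called Atf4 and Smurf2 lower. DESeq2 also called Cebpb and Tle1 higher, and edgeR did not.

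Signals upstream of the factors and relatives of the factors gave 0 calls with edgeR. Of 19 genes for BMP and Wnt signals, 0 were called by edgeR, DESeq2 or limma-voom, 5 had an unadjusted p under 0.05 with edgeR, 9 had negative and 10 positive log2 fold changes, and the median was 0.13. Of 8 paralogs of the factors (other Runx, Dlx, Msx, Twist and Prrx genes), 6 were tested, 3 had an unadjusted p under 0.05 and 0 were called with edgeR. DESeq2 called Dlx2 and Dlx4 higher and limma-voom called Dlx4 higher. Dlx1 and Dlx2 had at most 6 counts in any p53-driven tumor and passed the count filter through Myc-knockin tumors, so the signs of the paralogs that were tested are not read as a group.

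The products of the osteoblast and osteocyte, which the factors act on, were examined next. Of 20 such genes 19 were tested, 17 had negative log2 fold changes, 3 were called lower and 0 higher, and the median was -1.53. The groups did not overlap for 7 of the 19, with the Myc-knockin tumors below. Bglap and Bglap2, near-identical genes for osteocalcin whose reads the counting could split, were called at -5.34 (standard error 1.05, adjusted p = 0.0260 by edgeR) and -5.42 (standard error 1.13, adjusted p = 0.0288 by edgeR). Bglap had 83.3, 17.7, 72.0 and 42.8 CPM in the p53-driven tumors and at most 3.98 CPM in the Myc-knockin tumors. Cdh11, the osteoblast cadherin, was called at -1.53 (standard error 0.38, adjusted p = 0.0441 by edgeR). DESeq2 called 9 of the products lower and limma-voom 8, beside 1112 and 1000 called lower of all 15365 genes. Both sets of called products hold Col1a1 and Col1a2, the chains of type I collagen. The summed CPM of the list ran from 74779 to 159000 in the p53-driven tumors and from 5028 (M624) to 49479 (M664) in the Myc-knockin tumors.

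Markers of other cells in bone tumors also differed between the groups for some lists, and their part in the values of the factors was not tested. Of 9 osteoclast markers 6 were called lower, led by Dcstamp, Oscar, Calcr and Atp6v0d2, and their summed CPM ranged from 2788 to 14408 in the p53-driven and from 147 to 2638 in the Myc-knockin tumors. Of 8 leukocyte markers Csf1r and Cd68 were called lower, with sums of 666 to 1446 and 143 to 457 CPM. The 10 chondrocyte markers tested went both ways, with 5 negative and 5 positive log2 fold changes and a median of 0.07. Col11a1 was called lower, and DESeq2 alone called Col9a1 higher. The chondrocyte sums were 1467 to 4729 and 256 to 473 CPM, of which Col11a1 made up 1359.9 to 2039 and 73.6 to 281 CPM. Of 10 stromal and mesenchymal markers Cxcl12 was called lower (sums of 926 to 1517 and 469.6 to 663 CPM). None of the 7 endothelial, 8 muscle and 4 adipocyte markers tested was called by edgeR, DESeq2 or limma-voom, and 1, 0 and 1 of them had an unadjusted p under 0.05 with edgeR. Endothelial sums were 349 to 484 CPM in the p53-driven and 90.2 to 469.7 CPM in the Myc-knockin tumors, muscle sums 19.4 to 4046 and 4.53 to 1937 CPM, and adipocyte sums 91.5 to 438 and 22.9 to 155 CPM. Col1a1 was at 2098 CPM or more in every tumor, while Bglap and Bglap2 had 1 and 0 counts in M624 and 0 each in M408.

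Over the 9 tumors, the factors tracked each other unevenly. Pearson's r of log2 CPM was 0.93 between Runx2 and Dlx6, 0.90 between Dlx5 and Dlx6, 0.87 between Sp7 and Dlx5 and 0.79 between Runx2 and Sp7, while Msx2 had an r of 0.20 with Runx2 and -0.03 with Dlx3. By ranks the value for Runx2 and Dlx6 was 0.45, since M624 is far below the rest in both. The rank values were 0.73 for Dlx5 and Dlx6, 0.33 for Sp7 and Dlx5 and 0.65 for Runx2 and Sp7. The genes most like Runx2 by Pearson's r over the 9 tumors included Dnm3os (0.994) and Samd9l (0.987). Those most like Sp7 were Smad6 (0.978), Alpl (0.976) and Fam174a (0.970). These 9 points share 2 genotypes and differ in depth and satellite reads, so the values are descriptions.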

How the data were processed

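RNA-Seq counts from whole tumors of 4 p53-driven and 5 Myc-knockin GEMMs were analysed. Polyadenylated RNA was captured with oligo-dT, and per the labels reads went through Trim Galore, STAR (mm10) and featureCounts. The authors deposited the resulting raw counts in 1 table of 55367 genes. The strand setting and the handling of reads mapping to several places were not given in the sources used here. The 9 columns carry tumor names but no replicate numbers. F187, F325, F331, F368, M408 and M624 are listed under a genotype in the study's supporting data, and M351, M9 and M664 were placed in the Myc-knockin group by their letter. Nothing ties a column to a numbered sample. That the tumors came from separate animals is not stated, so p values measure the spread between these tumors.

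Counts were tested in R 4.3.3 with edgeR 4.0.16 (TMM, filterByExpr with a minimum count of 10, glmQLFit and glmQLFTest, Benjamini-Hochberg adjustment over 15365 genes). DESeq2 1.42.0 and limma-voom of limma 3.58.1 were alternatives. Wherever limma-voom is named here, it was run with sample quality weights. Log2 CPM used a prior count of 2. Ratios were compared by exact permutation over the 126 possible arrangements, two-sided (scipy 1.17.1). The scripts were tested on simulated data. Positions and exon lengths came from GENCODE M21, which holds 55111 of the gene identifiers. Promoters came from RefSeq (5 of 9 factors matched). Intervals of counting error were not computed, and the floor of 3 counts covers counting error only. Genomic background was the count on 1781 chemosensory receptor genes per kilobase of exon.

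The members, lists and alternatives were chosen with earlier results of these data known. All 9 factors are named, with Myc, the transcripts beside or opposite them, Cbfb and Atf4, up to 4 called genes per list and direction, and the 3 genes most like Runx2 and like Sp7. A single gene that falls under this rule is not reported here. Other genes were named after their values were seen. Alternatives were other normalizations, filters and tests, no fold minimum, satellite genes left out, genomic background subtracted, M624 and M664 or the 4 libraries with satellite reads left out, and each tumor left out in turn. Proteome data were not analysed here.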

Additional observations from a re-analysis of the deposited data

Results flagged for a closer look

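The following 4 values stood apart within their group by the gap between the extreme tumor and its nearest neighbor, taken as a share of the group's range (Dixon's criterion). Chance alone marks about 1 in 20 groups of values, and 32 groups were examined. Msx2 in F368 was 0.122 CPM, from 1 count, while the other p53-driven tumors had 1.19 to 1.38 CPM. The Dlx6:Dlx5 log2 ratio was -4.98 in M624 and between -1.46 and -0.85 in the other Myc-knockin tumors. The Dlx3:Dlx5 log2 ratio was -2.12 in M9 and between -0.48 and -0.06 in the other Myc-knockin tumors. The Msx1:Msx2 log2 ratio was 4.06 in M408, from 39 counts of Msx1 and 2 of Msx2, and between -0.47 and 0.82 in the other Myc-knockin tumors.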

How the results depend on the processing

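The number of factors called was 1 with all tumors, 0 with library size alone, 0 with all genes of at least 1 count, 0 without the 4 libraries with satellite reads, and 0 to 1 when 1 tumor was left out. Calls among the osteoblast products went from 3 to 9 with DESeq2, to 8 with limma-voom, and to between 0 and 3 with 1 tumor left out (0 without F325, F331 or F368, and 1 without F187). The Sp7:Runx2 difference turned to -0.31 without M624 and M664. The Dlx6:Dlx5 difference was 0.0618 without M624 and M664 and ran from -0.97 to 0.0650 with 1 tumor left out (0.0650 without M624). The Msx1:Msx2 difference ran from -1.38 to 0.58 (0.58 without F368). None of these ratios passed its test in any setting, and the cause of each change was not tested. Without M624 and M664 no ratio could pass, since the smallest exact permutation p for 3 tumors against 4 is 0.0571. Without the 4 libraries with satellite reads none could either, as that smallest p is 0.2 for 2 against 3. Over all genes, 809 were called with all tumors, 136 with library size alone, 494 with all genes of at least 1 count, 1316 with 10 counts or more in every tumor, 1663 with limma-voom, 2646 with DESeq2, 4595 without the 4 libraries with satellite reads, and 5 to 1588 with 1 tumor left out (5 without F368). Lower against higher calls were 461 and 348 in the main analysis, 345 and 626 with upper-quartile scaling, 531 and 785 with 10 counts or more in every tumor, and 1112 and 1534 with DESeq2. The median log2 fold change over all genes was 0.14 in the main analysis, 0.03 with library size alone and 0.97 with all genes of at least 1 count. No paired analysis was possible because the table's columns carry no replicate numbers.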

Other observations

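Among the paralogs, Twist2, which like TWIST1 restrains osteoblast maturation, had 33.9 CPM (890 counts) in M624 and at most 2.01 CPM in every other tumor, in which Twist1 was between 14.3 and 85.3 CPM. It did not reach the count filter and was not tested. Runx3 was also highest in M624, at 89.0 CPM against 17.4 to 50.6 CPM elsewhere, in the tumor with 9.18 CPM of Runx2. Dlx4, which lies 15150 bases from Dlx3, had 1.97, 0.933, 0.605 and 1.09 CPM in the p53-driven tumors and 5.54, 3.30, 6.37, 3.54 and 5.92 CPM in the Myc-knockin tumors. Its groups did not overlap, with the Myc-knockin tumors above, and it was not called (log2 fold change 2.14, adjusted p = 0.0563 by edgeR). How many of all genes separated in that direction was not counted. The p53-driven levels of Dlx4 rest on 5, 12, 7 and 9 counts. Those in M351 and M9 rest on 9 and 8 counts, with 3.67 and 4.06 expected from genomic background. Dlx1 had 5.54, 15.2, 12.7, 0 and 0.648 CPM in the Myc-knockin tumors, and Dlx2 had 2.46, 13.7, 11.9, 0.152 and 3.37 CPM. In M351 these levels rest on 9 counts of Dlx1 and 4 of Dlx2, with 6.06 and 3.21 expected from genomic background. In M9 they rest on 16 and 15 counts, with 6.70 and 3.55 expected. In the p53-driven tumors Dlx1 had at most 6 counts and Dlx2 at most 2. The tumors with the most Dlx1 and Dlx2, M408 and M9, had low and high Dlx5 and Dlx6 respectively. Among the upstream signals, Lrp6, a Wnt coreceptor, had 2719 CPM in M408 and 59.8 to 253 CPM in the other 8 tumors. These genes were picked after their values were seen.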
